A study of Homo sapiens with 13 samples.

Results

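Total RNA of K562 cells 1 h after the end of a labelling pulse was compared with that at 0 h, over all human genes that passed a count filter. The filter left 16255 of 59204 gene IDs, and the comparison rests on 4 of the 13 libraries of the series. K562, an established cell line from a human chronic myeloid leukaemia, grows in suspension and carries the BCR-ABL1 fusion. Cells of both groups had received 30 µM 4-thiouridine (4sU), an analogue of uridine that marks newly made RNA, for 12 h, and the medium had been renewed every 3 h, per the labels' protocols. The pulse ended with a wash in ice-cold PBS and a transfer into warm medium with 3 mM uridine. The 1 h group was harvested 1 h into this chase and the 0 h group at its start, with 2 libraries each. The labels do not say whether 0 h cells were taken before or after the transfer into warm medium. The labels name no culture that was mock-washed. The labels do not say whether replicates are separate cultures. The p-values rest on a spread between replicate libraries, which may be technical. It was estimated over all groups of the series, not only from these 4 libraries.

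RNA was alkylated so that incorporated 4sU is read as a base change (SLAM-seq), then joined by 5% of RNA from Drosophila S2 cells, the spike-in, and read from the 3' end of each transcript. Reads that the authors counted as nascent are named labelled counts here, and the rest of the total, unlabelled counts. RNA made during the pulse can carry label, whereas RNA that is older than the pulse should carry little or none. RNA made after the wash should carry less, but how much label it still took up was not tested. Immediate early genes are genes that cells switch on within minutes of a stimulus without the need for new protein. Many encode transcription factors of the FOS, JUN, EGR and KLF families, and their promoters are known to be read by serum response factor at CArG boxes and by CREB at cAMP response elements. Their mRNAs are usually short-lived, and among the proteins they encode are phosphatases that turn MAP kinase signalling off again.

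Total counts were 14501366 and 13769489 in the 1 h libraries, against 10064385 and 9004529 in the 0 h libraries. Labelled counts made up 34.9% and 34.5% of them at 1 h, against 35.9% and 36.1% at 0 h, and 0.00633% in the library without 4sU. Human counts per spike-in count were 12.80 and 13.23 at 1 h, against 12.98 and 13.02 at 0 h. A count of 0 allows a level of up to 0.207 and 0.218 CPM (counts scaled to library size) at 1 h, against 0.298 and 0.333 CPM at 0 h, counting error only. The replicates of a time differed by more than sampling noise (chi-square per degree of freedom 3.47 at 1 h and 3.14 at 0 h), so each library was counted as a sample. All 15 markers of K562 cells were detected, with summed levels of 14204 and 13330 CPM at 1 h, against 14231 and 12783 CPM at 0 h. Markers of megakaryocytes summed to 4.76 and 6.89 CPM at 1 h and 9.09 and 8.22 CPM at 0 h, with 7 of 11 at 0 in all 4 libraries. Those of granulocytes and monocytes summed to 26.2 and 23.5 CPM at 1 h and 26.7 and 25.2 CPM at 0 h, with 1 of 15 at 0. Those of lymphocytes summed to 26.1 and 24.1 CPM at 1 h and 27.0 and 23.4 CPM at 0 h, with 4 of 14 at 0. Markers of fibroblasts, endothelium and epithelium summed to 425 and 405 CPM at 1 h and 438 and 412 CPM at 0 h, with 3 of 14 at 0. In bulk RNA, fewer cells of a type and less RNA per cell cannot be told apart.

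At 1 h, 84 genes differed from 0 h, of which 73 were higher and 11 lower. The rises were led by FOS and FOSB, subunits of the AP-1 transcription factor. Among the larger rises were also EGR1, KLF6, DUSP1 and JUN, which are immediate early genes too. MIR23AHG and OSR2, which were not listed as such here, rose more than KLF6, DUSP1 and JUN. TMEM67, not listed either, rose about as much as KLF6 and DUSP1. The falls were fewer and included the cytokine signalling inhibitors SOCS1 and SOCS3 and the small nucleolar RNA host SNHG12. The 84 genes are 0.517% of the 16255 tested, the 73 are 0.449% and the 11 are 0.0677% (edgeR quasi-likelihood test with Benjamini-Hochberg adjustment at a false discovery rate of 0.05, named edgeR adjusted p here). A log2 change of at least 1 was reached by 22 of the 73 and 5 of the 11. Without adjustment, 800 genes were higher and 444 lower at p under 0.05. In all 84 called genes the 1 h libraries did not overlap those of 0 h, which also held for 37.2% of all genes tested. The median log2 change over all genes was 0.01, and 8516 of 16255 were above 0. Protein-coding genes made up 61 of the rises and 5 of the falls, and antisense transcripts 3 of each. Of 11509 coding genes tested 0.573% were called, and of 750 antisense transcripts 0.8%.

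**Figure D1:**
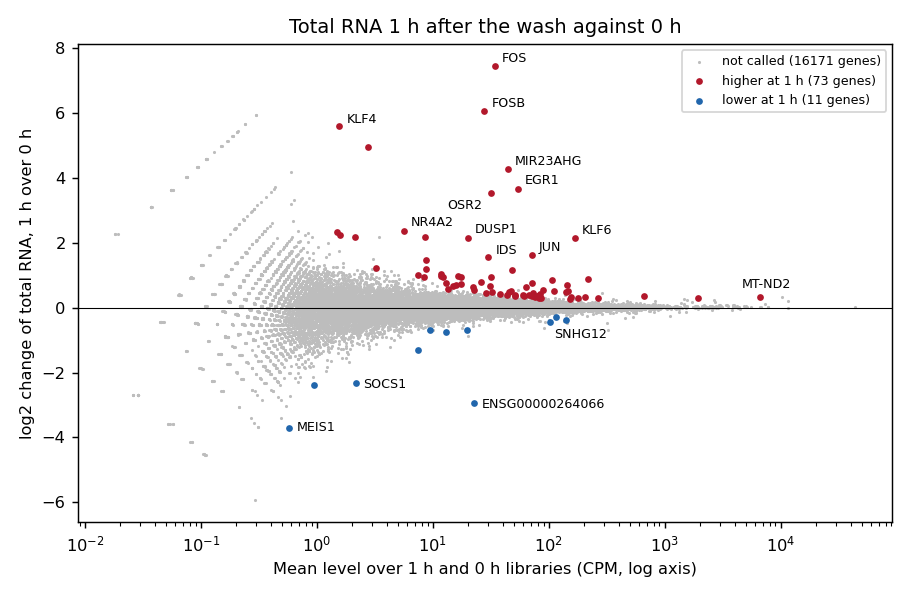
Each point is 1 of 16255 genes, with the mean level over the 4 libraries on the x axis (CPM, log axis) and the fitted log2 change of total RNA, 1 h over 0 h, on the y axis. The 73 genes called higher at 1 h are red and the 11 called lower are blue. Most of the strongest rises lie between 1 and 100 CPM, and FOS lies highest at a log2 change of 7.44.

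A gene could pass the filter through the level of 1 library, so a gene with hardly any counts at 0 h that passed through its 1 h level had to differ. Of the 73 rises, 66 had at least 10 counts in both 0 h libraries. In 7 of the 73 the 0 h mean was under 10% of the 1 h mean, namely FOS, FOSB, KLF4, EGR1, OSR2, MIR23AHG and ENSG00000272256. With each of the 4 libraries left out in turn, 27 of the 73 rises and 2 of the 11 falls were called every time, and 23 rises and 3 falls not once. Among the 27 were FOS, FOSB, EGR1, KLF4, KLF6, JUN, JUNB, JUND, NR4A2, SRF, IER2, PPP1R15A, TRIB1, CSRNP1, DUSP1 and ARRDC3. The 2 falls were SNHG12 and ENSG00000264066.

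Immediate early transcription factors were the group with most calls. Of 24 listed factors 20 were tested, 11 were higher and 0 lower, and 19 of the 20 had a positive log2 change, with a median of 0.90. Over all genes tested, 0.449% were called higher and 8516 of 16255 had a positive value. Among the 15 members with at least 10 counts in both 0 h libraries, 8 were higher, against 66 of 12899 such genes in all. The list and the genes named were chosen with earlier results of these data known, so the count describes these libraries and is not independent evidence.

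FOS (chromosome 14, 75278774 to 75282230, plus strand, GRCh38) encodes the partner of JUN in AP-1. It had 81.3 and 54.9 CPM at 1 h, against 0.522 and 0.228 CPM at 0 h, which is 1109 and 718 counts against 5 and 2. The fitted log2 change was 7.44 ± 0.31 (SE derived from the test statistic, edgeR adjusted p = 3.06e-18). FOS was thus near the limit of detection at 0 h and far above it at 1 h. FOSB (chromosome 19, 45467995 to 45475179, plus strand), a close relative of FOS, had 60 and 49.6 CPM at 1 h, against 0.836 and 0.799 CPM at 0 h. Its log2 change was 6.05 ± 0.27 (edgeR adjusted p = 2.19e-14). FOSB overlaps ERCC1 on the other strand, which held 1080 counts at 1 h and 788 at 0 h, and whether the counting used strand is not given in the sources used here. The other relatives of FOS did not pass. FOSL1 had 23.6 and 29.6 CPM at 1 h, against 20.2 and 20.6 CPM at 0 h (edgeR adjusted p = 0.328). FOSL2 stayed under 3 CPM in all 4 libraries, with 1.47 and 2.45 CPM at 1 h and 1.57 and 2.169 CPM at 0 h.

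All genes of the JUN family were higher at 1 h, in order of size JUN, JUNB and JUND. JUN (chromosome 1, 58780788 to 58784327, minus strand), the main DNA-binding partner of FOS, had 111 and 104 CPM at 1 h, against 37.0 and 33.0 CPM at 0 h. The log2 change was 1.61 ± 0.11 (edgeR adjusted p = 3.32e-11). JUNB had 31.2 and 34.0 CPM at 1 h, against 18.8 and 19.1 CPM at 0 h, a log2 change of 0.78 ± 0.11 (edgeR adjusted p = 9.16e-06), and it overlaps HOOK2 on the other strand. JUND, which most cells express steadily, had 174 and 157 CPM at 1 h, against 116 and 120 CPM at 0 h, a log2 change of 0.49 ± 0.07 (edgeR adjusted p = 1.44e-05). The groups of each gene did not overlap, and the log2 changes were 0.49 in JUND and 1.61 in JUN.

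EGR1 (chromosome 5, 138465490 to 138469315, plus strand), a zinc finger factor of the growth factor response, had 95.1 and 105 CPM at 1 h, against 7.21 and 8.91 CPM at 0 h. Its log2 change was 3.64 ± 0.14 (edgeR adjusted p = 4.91e-25). Its relatives EGR2, EGR3 and EGR4 did not pass the count filter, with 3 and 1 counts of EGR2 at 1 h and 0 and 0 at 0 h. NR4A2, an orphan nuclear receptor, had 10.3 and 8.57 CPM at 1 h, against 2.30 and 1.37 CPM at 0 h, a log2 change of 2.35 ± 0.30 (edgeR adjusted p = 6.18e-07). Its relative NR4A1 was at or under 0.918 CPM in the 4 libraries compared, and NR4A3 had no counts. SRF, the serum response factor that binds CArG boxes, had 165 and 180 CPM at 1 h, against 122 and 118 CPM at 0 h, a log2 change of 0.52 ± 0.07 (edgeR adjusted p = 1.27e-06).

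KLF6 (chromosome 10, 3775996 to 3785281, minus strand), a zinc finger factor known as a growth inhibitor, was well detected at both times. It had 263 and 282 CPM at 1 h, against 56.9 and 67.1 CPM at 0 h, a log2 change of 2.14 ± 0.09 (edgeR adjusted p = 5.42e-19). KLF10, a repressor induced by TGF-beta, had 17 and 14.5 CPM at 1 h, against 7.42 and 8.11 CPM at 0 h (log2 change 1.02 ± 0.20, edgeR adjusted p = 0.00198). KLF10 was called in 1 of the 4 fits that leave out a library, and its adjusted p lay between 0.0111 and 0.211 in them. KLF4, known from epithelial and stem cells, had 40 and 42 counts at 1 h, against 0 and 1 counts at 0 h (edgeR adjusted p = 9e-05). The ratio of its summed counts, corrected for depth, was 55.3, with an exact 95% counting interval of 9.65 to 2211, and DESeq2 did not call it. KLF2 had 31 counts at 1 h, against 1 count at 0 h, and did not pass (edgeR adjusted p = 0.0994). Its ratio was 20.9 with a counting interval of 3.48 to 852.

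The remaining factors of the list did not pass. MAFF, a small MAF protein, had 13.7 and 12.6 CPM at 1 h, against 8.67 and 8.11 CPM at 0 h (edgeR adjusted p = 0.113). ATF3, a stress-induced repressor, had 26.3 and 24.6 CPM at 1 h, against 17.2 and 25.5 CPM at 0 h, and overlapped between the groups. CREM and MAFK had log2 changes of 0.19 and 0.18. MYC, a transcription factor of growth, was the 1 member with a negative value, at 67.7 and 75.1 CPM at 1 h, against 96.0 and 92.2 CPM at 0 h (log2 change −0.40 ± 0.15, edgeR adjusted p = 0.512). MYC was called lower when genes were not filtered and when only the 4 libraries of 0 and 1 h were fitted.

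**Figure D2:**
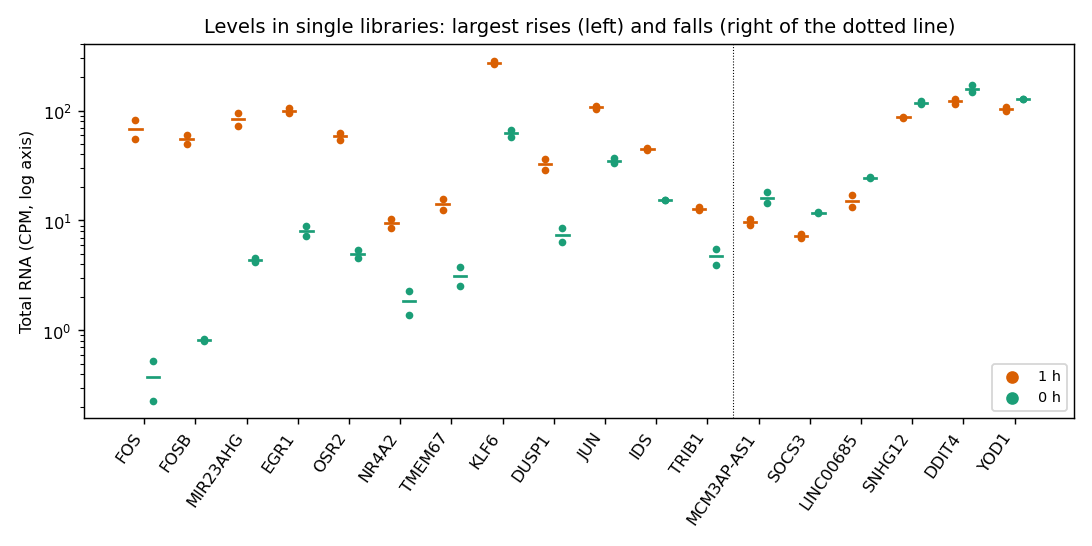
Total RNA in single libraries (CPM, log axis) of the 12 largest rises, left of the dotted line, and the 6 largest falls, right of it, among called genes with a symbol and a mean of at least 5 CPM. Orange points are the 2 libraries of 1 h and green points the 2 of 0 h, and the bars are their means. FOS had 81.3 and 54.9 CPM at 1 h, against 0.522 and 0.228 CPM at 0 h, and no gene's groups overlap.

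Promoters of 6 of the rises are shown, picked by no stated rule, so how many hold an element does not describe the rises. Those of EGR1, SRF, DUSP1 and PPP1R15A hold an element named in the background, and those of FOS and FOSB neither. Each is the 250 bases before the gene's start in RefSeq on GRCh38.p14, read 5′ to 3′ along the gene. Capitals mark CArG boxes, the cAMP response element TGACGTCA and the TATA box TATAAA, all searched on both strands.
FOS, chr14:75278578-75278827, plus strand: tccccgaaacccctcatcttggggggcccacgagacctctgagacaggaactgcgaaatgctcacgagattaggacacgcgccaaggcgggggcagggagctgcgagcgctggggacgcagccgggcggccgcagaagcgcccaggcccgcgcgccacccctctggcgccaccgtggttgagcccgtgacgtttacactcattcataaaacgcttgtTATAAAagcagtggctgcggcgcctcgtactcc
FOSB, chr19:45467746-45467995, plus strand: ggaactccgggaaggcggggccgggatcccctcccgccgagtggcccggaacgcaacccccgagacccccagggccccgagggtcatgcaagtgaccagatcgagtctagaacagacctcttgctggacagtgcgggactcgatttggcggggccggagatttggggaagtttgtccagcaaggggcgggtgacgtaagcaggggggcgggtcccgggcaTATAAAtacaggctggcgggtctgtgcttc
EGR1, chr5:138465229-138465478, plus strand: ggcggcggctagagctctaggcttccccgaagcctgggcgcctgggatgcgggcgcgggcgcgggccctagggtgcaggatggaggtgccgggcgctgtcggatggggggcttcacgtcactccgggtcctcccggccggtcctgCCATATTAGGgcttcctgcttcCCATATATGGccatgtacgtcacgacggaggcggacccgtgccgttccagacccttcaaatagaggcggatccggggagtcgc
SRF, chr6:43171019-43171268, plus strand: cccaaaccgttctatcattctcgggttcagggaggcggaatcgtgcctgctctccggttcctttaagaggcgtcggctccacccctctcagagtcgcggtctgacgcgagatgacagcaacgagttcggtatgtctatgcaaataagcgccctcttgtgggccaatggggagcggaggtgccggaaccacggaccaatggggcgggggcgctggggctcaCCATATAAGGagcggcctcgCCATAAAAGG
DUSP1, chr5:172771196-172771445, minus strand: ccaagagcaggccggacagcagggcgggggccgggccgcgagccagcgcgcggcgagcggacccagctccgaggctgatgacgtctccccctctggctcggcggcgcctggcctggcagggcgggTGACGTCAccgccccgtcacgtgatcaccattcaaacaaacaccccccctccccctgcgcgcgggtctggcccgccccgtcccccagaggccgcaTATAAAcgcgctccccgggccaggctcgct
PPP1R15A, chr19:48872171-48872420, plus strand: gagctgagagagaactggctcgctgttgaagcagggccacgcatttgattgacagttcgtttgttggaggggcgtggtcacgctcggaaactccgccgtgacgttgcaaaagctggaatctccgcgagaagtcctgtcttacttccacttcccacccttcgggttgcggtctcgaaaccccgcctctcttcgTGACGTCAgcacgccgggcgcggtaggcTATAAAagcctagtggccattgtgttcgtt
EGR1 held CArG boxes at positions −105 to −96 and −83 to −74 from its start, and SRF at −30 to −21 and −10 to −1. DUSP1 held the cAMP response element at −125 to −118 and PPP1R15A at −58 to −51. TATAAA lay between −33 and −25 in FOS, FOSB, DUSP1 and PPP1R15A. The windows of FOS and FOSB held neither a CArG box nor the full response element, which says only that these letters are not in the 250 bases searched.

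Over all rises, 50 of 73 genes were matched to 66 such windows, and 10005 of all tested genes to 14311. CArG boxes were found in 2 of the 66 windows (3.03%), against 0.978% of all windows. The cAMP response element was found in 8 of the 66 (12.1%), against 2.61% of all, in AREG, DUSP1, JUND, KLF11, NF1, PPP1R15A, PUM3 and ZFP36L1. TATAAA was found in 11 of the 66 (16.7%), against 5.86% of all, and the AP-1 site TGANTCA in 2 of the 66 (3.03%), against 4.25% of all. None of the first 3 elements was found in the 10 windows of 8 falls. Windows of 1 gene overlap, and a match is a description of the letters, not of binding.

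Immediate early genes with other roles also gave rises. Of 28 listed genes 21 were tested, 7 were higher and 0 lower, against 0.449% of all genes tested called higher. The median log2 change was 0.38. All 7 were among the 19 members with at least 10 counts in both 0 h libraries, against 66 rises in 12899 such genes. TRIB1, a pseudokinase that guides protein degradation, had 13.2 and 12.5 CPM at 1 h, against 3.97 and 5.48 CPM at 0 h (log2 change 1.45 ± 0.19, edgeR adjusted p = 1.59e-06). IER2, a nuclear protein of the immediate early response, had 271 and 294 CPM at 1 h, against 158 and 150 CPM at 0 h (log2 change 0.87 ± 0.07, edgeR adjusted p = 5.18e-13). PPP1R15A, which directs a phosphatase to the translation factor eIF2-alpha, had 136 and 137 CPM at 1 h, against 76.8 and 75.6 CPM at 0 h (log2 change 0.84 ± 0.07, edgeR adjusted p = 4.08e-12). In IER2 and PPP1R15A the replicates lay close together and far from the other time, whereas the 0 h replicates of TRIB1 lay further apart.

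CSRNP1, a nuclear protein, had 21.1 and 22.5 CPM at 1 h, against 11.6 and 10.8 CPM at 0 h (log2 change 0.96 ± 0.14, edgeR adjusted p = 6.53e-06). The other 3 were called in none of the fits that leave out a library. TIPARP, an ADP-ribosyltransferase, had 12.3 and 11.8 CPM at 1 h, against 4.81 and 5.71 CPM at 0 h, with an edgeR adjusted p of 0.0133 in all libraries and 0.149 to 0.420 with 1 left out. ZFP36L1, which binds AU-rich elements and speeds mRNA decay, had 106 and 103 CPM at 1 h, against 70.2 and 74.7 CPM at 0 h, with an edgeR adjusted p of 0.00701 and 0.252 to 0.448. MCL1, which protects cells from apoptosis, had 167 and 177 CPM at 1 h, against 131 and 142 CPM at 0 h, with an edgeR adjusted p of 0.0109 and 0.0856 to 0.434. Among the 14 members that did not pass was CCN1, a secreted matrix protein, at 1.39 and 2.60 CPM at 1 h, against 0.522 and 0.457 CPM at 0 h (edgeR adjusted p = 0.138). The 3 of these with negative values were BTG2, SGK1 and HBEGF, with log2 changes of −0.69, −0.45 and −0.59.

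Feedback inhibitors of MAP kinase signalling gave 1 call. Of 15 tested members 1 was higher and 0 were lower, with a median log2 change of 0.20, against 0.449% of all genes called higher. The 1 was DUSP1 (chromosome 5, 172768090 to 172771195, minus strand), a phosphatase that inactivates MAP kinases. It had 36.5 and 28.7 CPM at 1 h, against 8.46 and 6.39 CPM at 0 h, a log2 change of 2.13 ± 0.21 (edgeR adjusted p = 1.01e-08). DUSP5, a phosphatase of ERK in the nucleus, had 3.23 and 3.14 CPM at 1 h, against 1.78 and 1.71 CPM at 0 h (edgeR adjusted p = 0.408). DUSP6, a phosphatase of ERK in the cytoplasm, was at or under 0.418 CPM in all 4 libraries. SPRY4, an inhibitor of RAS signalling, had 5.79 and 4.28 CPM at 1 h, against 6.69 and 7.31 CPM at 0 h (edgeR adjusted p = 0.733).

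Several of the largest rises belong to none of these lists. MIR23AHG (chromosome 19, 13823880 to 13842928, minus strand), the host transcript of a microRNA cluster, had 95.2 and 72.8 CPM at 1 h, against 4.18 and 4.57 CPM at 0 h (log2 change 4.26 ± 0.16, edgeR adjusted p = 1.47e-25). OSR2, a zinc finger factor known from limb and palate development, had 62.8 and 53.6 CPM at 1 h, against 5.43 and 4.57 CPM at 0 h (log2 change 3.53 ± 0.16, edgeR adjusted p = 7.59e-22). IDS, a lysosomal sulfatase, had 44.1 and 45.5 CPM at 1 h, against 15.3 and 15.4 CPM at 0 h (log2 change 1.55 ± 0.12, edgeR adjusted p = 9.48e-14). All 3 were called with each library left out. TMEM67, a membrane protein of the primary cilium, had 15.8 and 12.5 CPM at 1 h, against 3.76 and 2.51 CPM at 0 h (log2 change 2.16 ± 0.26, edgeR adjusted p = 1.25e-07). ENSG00000272256, an antisense transcript opposite SARAF and chosen after its values were seen, had 142 counts at 1 h, against 3 at 0 h, a ratio of 31.9 with an exact 95% counting interval of 10.7 to 157. SARAF itself held 2514 counts at 1 h and 1703 at 0 h.

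Lists of nutrient and stress responses held rises too. Of 9 genes of the glucose response driven by MondoA, 3 were higher and 0 lower, against 0.449% of all genes tested called higher. All 9 had a positive value, with a median of 0.18. ARRDC3, an arrestin-like regulator of surface receptors, had 67.3 and 65.2 CPM at 1 h, against 29.9 and 30.0 CPM at 0 h (log2 change 1.145 ± 0.10, edgeR adjusted p = 5.51e-12). TXNIP, an inhibitor of glucose uptake and thioredoxin, had 219 and 237 CPM at 1 h, against 167 and 200 CPM at 0 h (log2 change 0.31 ± 0.07, edgeR adjusted p = 0.0272), and was called in 1 of the 4 fits that leave out a library. KLF10 was the other. FOXO targets gave 2 rises (TXNIP and BBC3) among 27 tested and p53 targets 1 (BBC3) among 23, each with 0 falls and against the same 0.449%. BBC3, which promotes apoptosis and is a BCL2 family gene as MCL1 is, had 68.5 and 68.2 CPM at 1 h, against 51.6 and 53.4 CPM at 0 h, and was called in none of the fits that leave out a library. The BCL2 family thus had 2 rises and 0 falls among 16 tested, with a median of 0.07, also against 0.449%.

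Among the mRNAs of the mitochondrial genome a subunit pair of complex I rose. Of 12 tested mRNAs 2 were higher and 0 lower, against 0.449% of all genes called higher. A positive value was found in 9, and the median log2 change was 0.18. MT-ND2, a subunit of respiratory complex I, had 6977 and 7705 CPM at 1 h, against 5730 and 5940 CPM at 0 h (log2 change 0.33 ± 0.07, edgeR adjusted p = 0.00617). MT-ND4, another subunit of that complex, had 1972 and 2286 CPM at 1 h, against 1637 and 1804 CPM at 0 h (log2 change 0.31 ± 0.07, edgeR adjusted p = 0.046). Without 1 of the libraries MT-ND2 was called in 2 of 4 fits and MT-ND4 in 1. Nuclear genes of the respiratory chain had 0 calls among 72, with a median of −0.00.

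Other lists gave few calls or none, beside 0.449% of all genes tested called higher and 0.0677% called lower. Cytosolic heat shock proteins had 1 rise among 28, the transcription factor HSF2 at a log2 change of 0.43, and zinc finger ZNF genes 1 among 413, ZNF408 at 0.55. Small nucleolar RNA hosts had 1 rise and 1 fall among 23. The rise was SNHG3, with 753 and 725 CPM at 1 h, against 572 and 572 CPM at 0 h (log2 change 0.37 ± 0.07, edgeR adjusted p = 0.000992). It shares bases with RCC1 on the same strand, where reads could go to either gene. HSF2, ZNF408 and SNHG3 were called in at most 1 of the 4 fits that leave out a library.

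The falls held 5 protein-coding genes, and the others were noncoding transcripts and pseudogenes. SNHG12 (chromosome 1, 28578538 to 28583132, minus strand) had 86.1 and 87.5 CPM at 1 h, against 123 and 114 CPM at 0 h, a log2 change of −0.45 ± 0.07 (edgeR adjusted p = 8.63e-05). TRNAU1AP lies across it on the other strand, with 787 counts at 1 h and 516 at 0 h. DDIT4, an inhibitor of mTOR signalling and the 1 fall among 32 ATF4 targets, had 114 and 128 CPM at 1 h, against 146 and 170 CPM at 0 h (log2 change −0.39 ± 0.09, edgeR adjusted p = 0.0311). YOD1, a deubiquitinase, had 98.4 and 108 CPM at 1 h, against 126 and 128 CPM at 0 h (log2 change −0.30 ± 0.07, edgeR adjusted p = 0.0491). Of these 3 only SNHG12 was called with each library left out, DDIT4 in 1 of 4 fits and YOD1 in 0 of 4.

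Targets of STAT5, a factor that BCR-ABL1 keeps active, gave 0 rises and 2 falls among 13 tested, with a median of 0.04. Over all genes tested, 0.0677% were called lower. SOCS3, an inhibitor of JAK kinases, had 7.48 and 6.96 CPM at 1 h, against 11.6 and 12.0 CPM at 0 h (log2 change −0.71 ± 0.18, edgeR adjusted p = 0.046), and an adjusted p of 0.232 to 0.415 with 1 library left out. SOCS1, its relative, had 0.220 and 1.22 CPM at 1 h, against 3.66 and 3.54 CPM at 0 h, which is 3 and 16 counts against 35 and 31 (log2 change −2.32 ± 0.41, edgeR adjusted p = 0.000483). Without replicate 1 of 1 h its adjusted p was 0.140, and RMI2 overlaps it on the other strand. LINC00685 and MCM3AP-AS1, antisense transcripts, fell by 0.69 and 0.74 on the log2 scale, and each was called in 1 of 4 fits that leave out a library. Among 23 haematopoietic transcription factors 0 were higher and 1 was lower, MEIS1, with 1 and 1 counts at 1 h, against 13 and 7 counts at 0 h.

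The largest fall among genes with a mean of at least 5 CPM was in ENSG00000264066 (chromosome 17, 28861072 to 28861966, minus strand), a lincRNA without a symbol that was chosen after its values were seen. It had 5.42 and 5.05 CPM at 1 h, against 39.3 and 41.1 CPM at 0 h, a log2 change of −2.94 ± 0.19 (edgeR adjusted p = 1.41e-10). It was called in every fit that left out a library, and its mean of 40.2 CPM at 0 h compares with means of 5.24 to 20.7 CPM at the later times.

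No call was made among 12 targets of BMP and TGF-beta, 18 of NF-kappaB and 22 of NRF2, 8 cold-shock RNA-binding proteins, 24 ER stress genes and 21 genes of pyrimidine and uridine metabolism. The same held for 23 G1/S genes, 31 mitosis genes, 22 replication-dependent histones, 36 erythroid genes, 10 globins, 21 glycolysis genes, 21 genes of elongation control and BET proteins and 20 splicing kinases and SR factors. It also held for 19 genes of BTG, TOB and deadenylation, 17 interferon-response genes, 16 of iron homeostasis, 8 of metallothioneins and zinc transport, 79 cytosolic ribosomal proteins (median log2 change 0.02) and the tested markers of K562 and of the other cell types. The median log2 change of these lists lay between −0.11 and 0.10 for those with at least 8 tested genes. Of the controls, GAPDH had a log2 change of 0.16 ± 0.07, EEF1A1 of −0.03 ± 0.07, HBG1 of 0.03 ± 0.07 and GATA1 of 0.07 ± 0.08, all with an edgeR adjusted p of at least 0.495. ACTB had 2424 and 2292 CPM at 1 h, against 2450 and 2265 CPM at 0 h.

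The nascent counts divide each total into RNA with and without label. Over all genes, 13 of 13479 were called higher in labelled RNA at 1 h (0.0964%) and 54 lower (0.401%), while 1026 were higher (7.61%) and 22 lower (0.163%) in unlabelled RNA (edgeR quasi-likelihood test). The labelled share of a gene's counts was called lower in 1016 of 12605 genes (8.06%) and higher in 19 (0.151%). The parts sum to the total, so these tests are not independent of the total RNA. Of the 1026 genes, 955 were not called in total RNA, and in 659 the mean labelled level was lower at 1 h.

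The rises in total RNA lay mainly in unlabelled RNA. Of the 72 rises tested, 71 were called higher in unlabelled RNA, 11 were called higher in labelled RNA and 1, TXNIP, was called lower there. The mean labelled level was higher at 1 h in 60 of the 73. The share was called lower in 57 of the 72, against 8.06% of all genes tested for it. Its median over the rises was 42.2% at 1 h, against 65.0% at 0 h, and the median difference was −17.7 percentage points. Over all genes tested the medians were 51.2% at 1 h and 55.8% at 0 h, and the median difference was −2.51 points. Among the rises, the labelled part of the gain had a median of 15.7%.

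**Figure D3:**
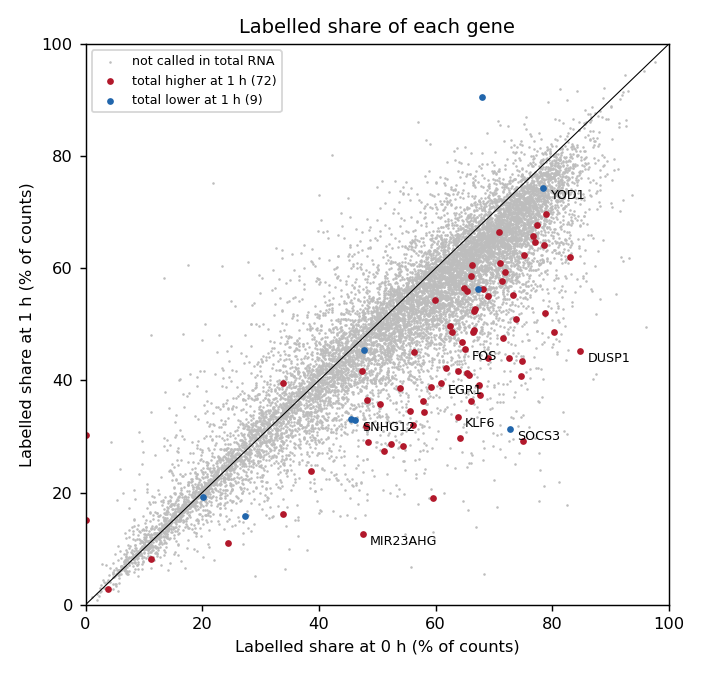
Labelled share of each gene's counts (%), at 0 h on the x axis and at 1 h on the y axis, as means of the 2 libraries of each time. Grey points are genes not called in total RNA, red points rises and blue points falls, and the line marks equal shares. Most rises lie under the line, with a median share of 42.2% at 1 h, against 65.0% at 0 h.

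Labelled RNA was called higher at 1 h in the strongest rises, FOS, FOSB, EGR1, KLF4, KLF6, JUN, NR4A2, DUSP1, OSR2, MIR23AHG and IDS. FOS was 43.3% and 47.8% labelled at 1 h, and its 7 counts at 0 h held 5 labelled ones. The labelled part took 44.9% of its gain, and labelled RNA rose by 6.76 ± 0.35 on the log2 scale, against 8.29 ± 0.43 for unlabelled RNA (edgeR adjusted p = 2.81e-74 and 1.19e-17). EGR1 was 42.1% and 37.0% labelled at 1 h, against 66.7% and 55.1% at 0 h, and 37.6% of its gain was labelled. In DUSP1 the share was 43.8% and 46.7% at 1 h, against 84.0% and 85.7% at 0 h, and 33.3% of the gain was labelled. These genes gained labelled and unlabelled RNA together, in unlike proportions. When the labelled RNA in them was made, and the source of the labelled gain, were not tested.

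FOSB was less labelled than FOS, at 15.0% and 17.3% at 1 h, and its 15 counts at 0 h do not give a firm share. The labelled part took 15.8% of its gain. MIR23AHG was 14.5% and 10.6% labelled at 1 h, against 50.0% and 45.0% at 0 h, and 10.9% of its gain was labelled. KLF6 was 32.6% and 34.5% labelled at 1 h, against 63.7% and 63.9% at 0 h, and JUN 39.8% and 35.0% at 1 h, against 66.7% and 68.5% at 0 h. The labelled part of the gain was 24.7% in KLF6, 22.9% in JUN, 23.6% in IDS, 26.6% in OSR2 and 39.1% in NR4A2. It was 6.66% in TMEM67 and 13.8% in TRIB1, in which labelled RNA was not called.

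In weaker rises labelled RNA was not called higher while unlabelled RNA was. IER2 was 38.6% and 39.1% labelled at 1 h, against 58.4% and 59.9% at 0 h, with a log2 change of 0.26 ± 0.09 in labelled RNA (edgeR adjusted p = 0.272) and 1.45 ± 0.08 in unlabelled RNA (8.76e-19). SRF was 49.5% and 47.7% labelled at 1 h, against 64.6% and 60.9% at 0 h, with 15.8% of the gain labelled. PPP1R15A was 42.2% and 42.2% labelled at 1 h, against 64.9% and 58.8% at 0 h, with 17.3% of the gain labelled. TXNIP was 42.3% and 45.9% labelled at 1 h, against 70.7% and 74.5% at 0 h. Its labelled RNA fell by 0.41 ± 0.09 on the log2 scale (edgeR adjusted p = 0.00183), and its unlabelled RNA rose by 1.35 ± 0.08 (1.97e-17). ARRDC3 and MCL1 had log2 changes of 0.36 and 0.01 in labelled RNA, neither of them called, and of 2.31 and 0.87 in unlabelled RNA.

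Several immediate early genes that were not called in total RNA were called higher in unlabelled RNA. Over the whole lists, rises in total RNA included, 15 of 18 factors tested in this way were higher in unlabelled RNA. So were 15 of 21 immediate early genes with other roles, against 7.61% of all genes tested. Called higher in unlabelled but not in total RNA was MAFF, with a log2 change of 1.65 in unlabelled and 0.12 in labelled RNA. So were FOSL1 at 1.03 and −0.42 and ZFP36L2 at 0.86 and −0.14. MYC was called lower in labelled RNA at −0.48 ± 0.10 (edgeR adjusted p = 0.00183) and had −0.14 ± 0.19 in unlabelled RNA. In mitochondrial mRNAs the share was called lower in 7 of 10, and labelled RNA was called lower in 3 of 10. Over all genes these were 8.06% and 0.401%. MT-ND2 was 7.93% and 8.28% labelled at 1 h, against 11.1% and 11.2% at 0 h.

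**Figure D4:**
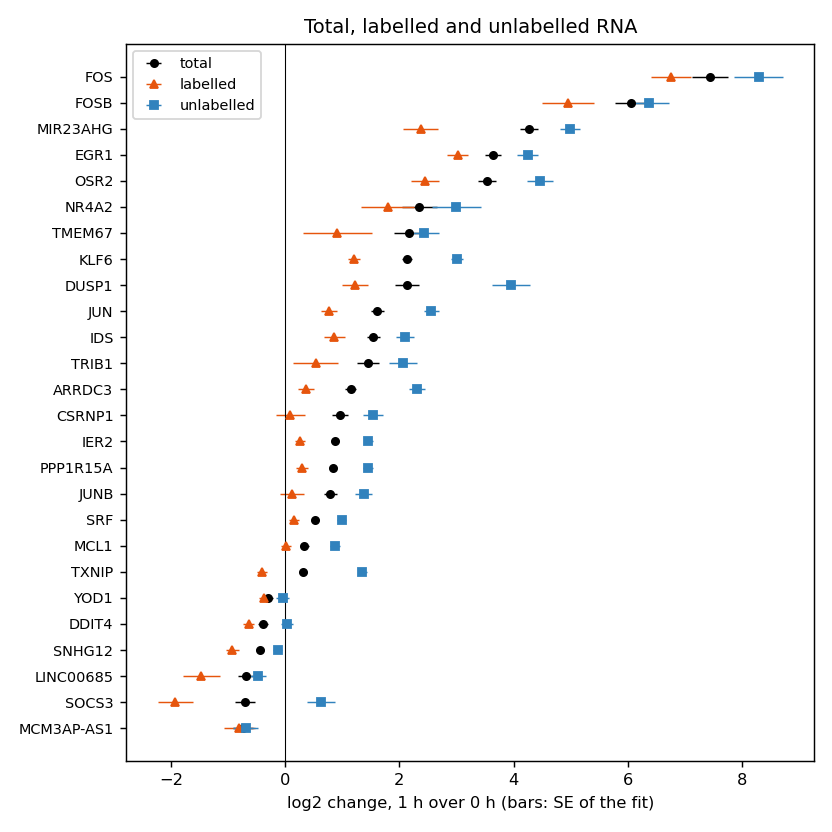
Fitted log2 change, 1 h over 0 h, of total (black circles), labelled (orange triangles) and unlabelled RNA (blue squares) for 26 called genes. The bars are 1 SE, derived from the test statistic. In the rises the unlabelled change lies right of the labelled one in each gene shown, as in DUSP1, where labelled RNA changed by 1.22 and unlabelled RNA by 3.96.

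Falls differed in which part was lost. Of 10 tested falls 6 were lower in labelled and 6 in unlabelled RNA. SOCS3 was 27.5% and 35.2% labelled at 1 h, against 70.3% and 75.2% at 0 h, which was the largest drop of share among called genes with at least 200 counts. Its labelled RNA fell by 1.93 ± 0.31 on the log2 scale (edgeR adjusted p = 5.11e-07), and its unlabelled RNA had 0.63 ± 0.25 (0.125). SNHG12 was 35.1% and 30.9% labelled at 1 h, against 44.9% and 47.4% at 0 h, and its labelled RNA fell by 0.93 ± 0.12 (edgeR adjusted p = 2.37e-12) while unlabelled RNA had −0.13 ± 0.08 (0.442). DDIT4 showed the same order, with −0.64 ± 0.10 in labelled and 0.03 ± 0.11 in unlabelled RNA. In ENSG00000264066 both parts fell, by 3.40 ± 0.29 in labelled and 2.64 ± 0.22 in unlabelled RNA.

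By median, the labelled share fell further late in the chase in the called genes, by libraries that lie outside the comparison. As a measure, the labelled share at 12 h was taken as a percentage of that at 2 h. A low value can come from loss of labelled RNA or from gain of unlabelled RNA, which this measure does not separate. BMS1, a rise, averaged 54.4 CPM of total RNA at 2 h and 149 CPM at 12 h. The median was 4.71% over 68 rises and 1.99% over 9 falls with enough labelled counts, against 13.5% over 11847 genes not called. Single rises varied widely, with 0.352% at the 10th percentile and 18.7% at the 90th, and these values are a description without a test.

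Later times show which rises passed quickly, as levels that share the 0 h and 1 h libraries with the comparison. As the mean of 2 libraries a time, FOS averaged 0.375, 68.1, 4.89, 1.06 and 0.382 CPM at 0, 1, 2, 4 and 12 h. DUSP1 averaged 7.43, 32.6, 6.21 and 3.22 CPM at 0, 1, 2 and 12 h. FOSB averaged 0.817, 54.8, 44.4, 9.94 and 0.874 CPM at 0, 1, 2, 4 and 12 h. These 3 genes thus peaked at 1 h among the times sampled, and FOSB came down later than the other two.

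KLF6 averaged 62.0, 272, 137, 63.6 and 25.2 CPM at 0, 1, 2, 4 and 12 h. EGR1 averaged 8.06, 99.9, 25.6 and 24.7 CPM at 0, 1, 2 and 12 h, against 4.89 CPM in the library without 4sU. Other rises went on. SRF averaged 120, 172, 249 and 297 CPM at 0, 1, 2 and 12 h, against 329 CPM without 4sU, and IER2 averaged 154, 282 and 539 CPM at 0, 1 and 12 h. Of the 73 rises, 40 had a higher mean at 2 h than at 1 h and 36 a higher mean at 12 h than at 1 h, against 47.0% and 46.7% of all genes tested. SNHG12 averaged 118, 86.8, 110 and 166 CPM at 0, 1, 2 and 12 h, and DDIT4 averaged 158, 121, 97.3 and 25.4 CPM. The fall of SNHG12 was thus followed by higher means, and that of DDIT4 by lower ones.

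**Figure D5:**
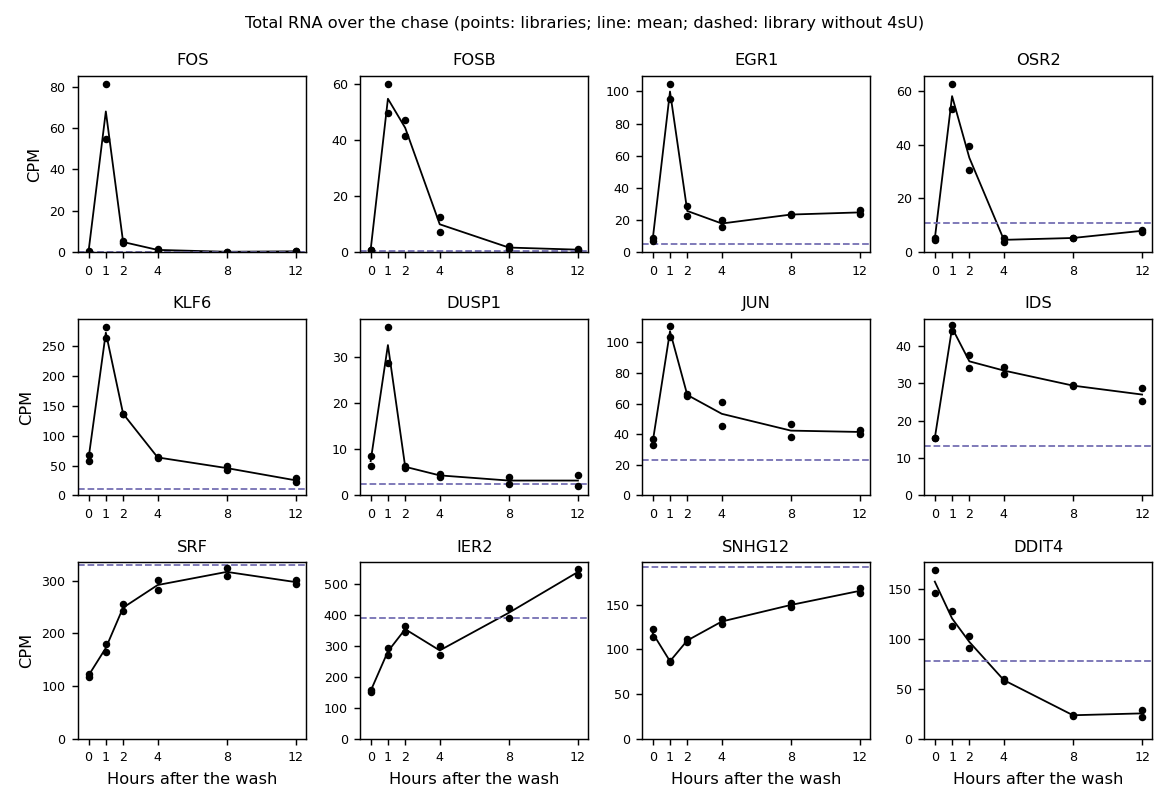
Total RNA (CPM) against hours after the wash for 12 called genes, with the 2 libraries of each time as points, their mean as a line and the library without 4sU as a dashed line. FOS, EGR1 and DUSP1 peaked at 1 h, as with 68.1 CPM of FOS at 1 h and 4.89 CPM at 2 h, while SRF and IER2 went on to 297 and 539 CPM at 12 h.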

How the data were processed

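The authors deposited raw counts per human gene of all reads and of reads they call nascent, and counts per Drosophila gene, for 13 libraries of K562 cells. Per the submitters' processing notes, bedtools, Trim Galore 0.6.5 and bcl2fastq 2.17.1.14 were used with the build hg38. Not given in the sources used here are the aligner, counter, annotation, use of strand and the rule for nascent reads. Antisense and overlapping genes, and pseudogenes and near-identical copies, are therefore uncertain. All columns were matched to libraries by name.

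Symbols came from a table of gene names (40541 of 59204 IDs) and gene spans from GENCODE 29 on GRCh38, counted from 1. Promoter sequences came from RefSeq on GRCh38.p14, 250 bases before each start.

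Total counts were tested with edgeR 4.0.16 in R 4.3.3 (filterByExpr, TMM, robust quasi-likelihood test, two-sided, false discovery rate 0.05 by Benjamini-Hochberg). All 13 libraries entered as 7 groups that share 1 spread; the single library without 4sU adds no degrees of freedom. Labelled and unlabelled counts were fitted over the 12 chase libraries with the scaled size of the total library as offset, for genes with at least 20 labelled counts in the 4 libraries. The share was tested as the log odds of label with the library as block. CPM are TMM-scaled. SE were derived from the test as the absolute log2 change divided by the square root of its F statistic. For genes with few counts at 0 h, as FOS and FOSB, they may be smaller than the counting error. With 2 against 2 libraries an exact permutation test cannot go under p = 0.333, so single values carry none. Counting intervals are exact (95%) and, like the floor of 3 counts, cover counting error only. Tables and figures used Python 3.11.15, pandas 2.3.3, scipy 1.17.1 and matplotlib 3.10.9.

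Genes were named by this rule: the 12 largest rises and 12 largest falls among called genes with a symbol, no overlap between the times and at least 5 CPM on average (only 6 falls met it), up to 4 called members of each of 40 lists and those against its majority. Further named were tested members of the lists of immediate early genes and MAP kinase feedback inhibitors, the 5 largest share changes among genes called in both tests with at least 200 counts, and 6 controls. The genes, lists, tests and the rule were chosen with earlier results of these data known, and genes named outside the rule were chosen after their values were seen. The result of 1 further list is not reported here.

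Alternatives were DESeq2 1.42.0, RLE size factors, total counts or spike-in totals as library sizes, other filters, each library left out, only the 4 libraries, and the replicate number as a block.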

Additional observations from a re-analysis of the deposited data

How the results depend on the processing

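Of the 73 rises and 11 falls in total RNA, DESeq2 called 44 and 5. The fits that leave out a library called 35 to 40 rises and 4 to 7 falls. These ranges also count genes outside the 73 and 11, so fewer of the main calls were kept than they give. RLE size factors gave 66 and 12, total counts 52 and 9, and spike-in totals 49 and 11. A mean of at least 5 CPM gave 50 rises and 6 falls, no filter 81 and 18, and only the 4 libraries 91 and 40. Labelled RNA had 13 rises (6 to 10 with a library left out) and 54 falls (10 to 30), with 107 falls when only the 4 libraries were fitted. Unlabelled RNA had 1026 rises (596 to 686) and 22 falls (10 to 17), with 622 rises and 12 falls with spike-in totals and 58 falls when only the 4 libraries were fitted. The share was higher in 19 genes (5 to 12) and lower in 1016 (488 to 605), with 31 higher when only the 4 libraries were fitted. The cause of these shifts was not tested. No named gene that was called changed direction in any of these settings. With a library left out, the log2 changes of 13 named genes that were not called took either sign, between −0.35 and 0.38 in FOSL2, −0.55 and 2.01 in NR4A1, −0.0056 and 0.55 in ATF3, −0.26 and 0.28 in DUSP7, −0.17 and 0.68 in DUSP10, −0.14 and 0.16 in DUSP16, −0.16 and 0.078 in SPRED1, −0.021 and 0.061 in SPRED2 and −0.73 and 0.88 in ERRFI1. In controls these were −0.072 and 0.051 in ACTB, −0.083 and 0.0027 in EEF1A1, −0.065 and 0.11 in HBG1 and −0.050 and 0.17 in GATA1. MYC passed at −0.41 without a filter and at −0.41 with only the 4 libraries. Replicate numbers were not used to pair the libraries in the main fits. The deviations of replicate 1 at 0 h and 1 h correlated at 0.198, and those of all 15 pairs of times at −0.169 to 0.449. These values do not exclude an effect shared by libraries of 1 replicate number. With a replicate block, 83 rises and 16 falls were called in total RNA, 13 and 55 in labelled and 1123 and 28 in unlabelled RNA, and ZFP36L1 and DDIT4 were not called. The 0 h libraries were the shallowest, which limits shares of genes with few counts there, as in FOS and FOSB.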

Other observations

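Rises outside the lists, named after their values were seen, included proteins of ribosome and RNA maturation. BMS1, a GTPase of small subunit assembly, had 38.3 and 38.5 CPM at 1 h, against 23.1 and 25.3 CPM at 0 h, a log2 change of 0.67 ± 0.10 (edgeR adjusted p = 6.53e-06), and was called with each library left out. LRPPRC, which stabilises mitochondrial mRNAs, had 129 and 129 CPM at 1 h, against 87.2 and 95.7 CPM at 0 h, a log2 change of 0.50 ± 0.07 (edgeR adjusted p = 9.16e-06), and was called each time as well. PUM3, NGDN, RCL1 and TTF1, which are nucleolar proteins, had log2 changes of 0.56, 0.38, 0.35 and 0.64. PUM3, NGDN and RCL1 were called in none of the fits that leave out a library and TTF1 in 2 of 4. No list of such genes was counted, so no share of them is given.

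BMS1, PUM3 and NGDN did not come back to their 0 h level. BMS1 averaged 24.2, 38.4, 72.6 and 149 CPM at 0, 1, 4 and 12 h, against 163 CPM in the library without 4sU. PUM3 averaged 11, 16.3, 35.0 and 74.4 CPM, against 69.7 CPM without 4sU. NGDN averaged 58.6, 76.1, 193 and 237 CPM, against 172 CPM without 4sU. Of all 73 rises, 57 had a higher mean at 12 h than at 0 h (78.1%), against 47.4% of all genes tested, and 49 a higher value without 4sU than at 0 h (67.1%), against 47.9%. These shares use the 0 h libraries that chose the rises and are a description.

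Other rises named after their values were seen were the nuclear noncoding RNA NEAT1, with 158 and 194 CPM at 1 h, against 99.6 and 118 CPM at 0 h, and the mitotic kinase WEE1, with 94.8 and 95.8 CPM at 1 h, against 69.0 and 74.1 CPM at 0 h. NEAT1 was not called without either 0 h library, and WEE1 without any of the 4. WEE1 was 61.5% and 62.5% labelled at 1 h, against 81.7% and 84.3% at 0 h.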
